A study of Mus musculus with 7 samples.

Results

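Inhibitory neurons were compared with excitatory neurons of the same dorsal forebrain samples, within each sample from E12.5 to E18.5. The authors' deposited cell table gives every cell a cluster number without a name, here called its label. Label 8 was taken as the inhibitory class and labels 2, 5, 9 and 11 as the excitatory class, in libraries of E12.5 to E18.5 with at least 10 cells of each. All 10 libraries of these stages met this rule. They held 407 inhibitory and 2596 excitatory cells, 3003 of the 10261 cells of the series. Another 30 cells of label 8 and 3 excitatory cells came from E10.5 and were not used.

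The tissue was dorsal forebrain of CD-1 mouse embryos, an outbred strain, from timed matings, with no allele or treatment named in the labels. The tissue was made into a cell suspension, and each cell was caught in a droplet with a barcoded bead (Drop-seq), which counts mRNA molecules as unique molecular identifiers (UMIs). The 6 samples used were E12.5, E14.5 replicate 1, E14.5 replicate 2, E15.5, E16.5 and E18.5. The labels do not name separate litters or embryos, so the sample was the unit of each test. Part of the variation from sample to sample can be technical. In the gene tests, the variation of each gene was also moderated towards that of all genes. A p-value of a gene therefore does not rest on its own 6 pairs alone.

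Cortical excitatory neurons are born from progenitors of the cortex itself and release glutamate. Most cortical inhibitory interneurons are born outside the cortex, in the medial and caudal ganglionic eminences (MGE and CGE) of the ventral forebrain, and reach it by tangential migration. They make GABA from glutamate with the enzymes encoded by Gad1 and Gad2, and their fate depends on DLX homeobox factors. Excitatory neurons depend on basic helix-loop-helix factors of the NEUROD family and on layer factors such as TBR1 and FEZF2.

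A sample contributed 33 to 117 inhibitory and 154 to 817 excitatory cells. The summed counts held 81206 to 212132 UMIs for the inhibitory class and 736657 to 1992455 for the excitatory class. Levels are given as counts per 1e6 UMIs of a sum (CPM), so 3 counts, the limit taken for a gene with no count, were worth 14.1 to 36.9 CPM in an inhibitory and 1.51 to 4.07 CPM in an excitatory sum. These limits cover counting error only. Inhibitory cells made up 1.87% of all cells at E12.5 and 11.9% at E16.5, the lowest and highest share. The make-up of the excitatory class also moved with stage: label 2 held 91.8% of its cells at E12.5 and 0.584% at E18.5, and label 5 held 3.23% and 65.7%. Between libraries, 4 barcodes were shared, borne by 5 cells of both classes together. One label 8 cell of E18.5 held 34.0% haemoglobin UMIs of its 5099 UMIs, and the summed level of 20 vascular, blood and immune genes was 8231 CPM in that sum against a median of 42.1 CPM over the inhibitory sums.

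To show sequence next to the start sites of genes of each class, the 250 bases before the RefSeq start site were read for the 24 genes with the largest differences, from RefSeq (GRCm38.p6, 1 window per gene). A window was found for 17 of them. Both strands were searched for TAATTA, a core bound by many homeobox factors, for the E-boxes CAGATG and CATATG, which factors of the NEUROD type can bind, and for TGACGTCA, the cyclic AMP response element. No motif contains another. The Neurod2 window, chr11:98329646-98329895 on the minus strand, held both E-boxes, shown in capitals.

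Neurod2: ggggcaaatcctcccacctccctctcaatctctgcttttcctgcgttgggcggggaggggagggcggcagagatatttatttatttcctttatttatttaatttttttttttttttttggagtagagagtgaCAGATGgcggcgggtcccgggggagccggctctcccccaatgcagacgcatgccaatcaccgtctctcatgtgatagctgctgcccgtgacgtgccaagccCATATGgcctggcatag

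The motif matches of 3 further genes are shown with 11 bases on each side, the match in capitals. The first 2 lie in the window of Dlx6os1 (chr6:6869534-6869783, minus strand), a long non-coding RNA gene antisense to Dlx6. The next 2 are both matches of Tbr1 (chr2:61804203-61804452, plus strand), and the last is the cyclic AMP response element of the somatostatin gene Sst (chr16:23890845-23891094, minus strand).

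Dlx6os1 site 1: aaaattacaggTAATTAtctttgacggt

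Dlx6os1 site 2: aaaaattactcTAATTAtggctgcattt

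Tbr1 site 1: ggtgattatccTAATTAatgtctatcta

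Tbr1 site 2: taatgtctatcTAATTAaattactgtca

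Sst site: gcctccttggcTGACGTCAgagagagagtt

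TAATTA was present in 1 of 9 windows of genes higher in inhibitory neurons, 1 of 8 windows of genes lower there, and 4.90% of all 27025 windows. CAGATG was in 1 of 9 (Gad2) and 2 of 8 (Neurod2 and Sema3c), against 14.5% of all. CATATG was in 0 of 9 and 2 of 8 (Neurod1 and Neurod2), against 3.47%. TGACGTCA was in 1 of 9 (Sst) and 0 of 8, against 1.62%. Some windows lie within annotated exons of GENCODE M21, whose gene models can start farther upstream: all 250 bases for Dlx6os1, Tbr1 and Sema3c, 149 for Neurod1, 122 for Gad2, 114 for Sst and 3 for Neurod2. These matches describe letters and do not show binding.

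The names of the classes were first checked against 12 markers of each kind. The markers of inhibitory neurons summed to 3877 to 5712 CPM in the inhibitory sums and 3.49 to 44.7 CPM in the excitatory sums. The markers of excitatory neurons summed to 3995 to 8736 CPM in the excitatory and 363 to 1070 CPM in the inhibitory sums. Cells of labels 1, 3, 6, 10 and 12, which carried 8793 to 15680 CPM of radial glia genes and were used as a reference group of progenitors, had 363 to 727 CPM of excitatory markers. A UMI of Neurod2 or Neurod6 was found in 12.8% of inhibitory cells (median 1479 UMIs) and in 12.3% of that reference group (median 1955 UMIs). Thinned to 1000 UMIs a cell, with 90 of 407 and 482 of 2721 shallower cells left out, the shares were 8.52% and 7.15%. Bcl11b, which both classes expressed, held 226 to 529.5 CPM of the excitatory markers in the inhibitory sums. Gad1 or Gad2 had a UMI in 75.9% of inhibitory and 0.770% of excitatory cells (median 2364 UMIs), and in 62.5% and 0.177% after thinning. The vesicular glutamate transporter genes Slc17a6 and Slc17a7 had at most 16.3 and 8.16 CPM in inhibitory sums and at most 52.5 and 23.5 CPM in excitatory sums. They were too low to be tested.

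Differences were fitted over the 6 pairs with edgeR, with the sample as a block, for 6772 genes that passed a filter on low counts. The labels came from clustering the same counts. The fit therefore says how even a difference was over samples, not that the classes differ. In inhibitory neurons 427 genes (6.31% of those tested) were higher and 523 (7.72%) lower at an adjusted p under 0.05, and the median log2 difference of all tested genes was -0.0038. The excitatory sums were deeper, and a gene could pass the filter through the class where it was high, so the counts by list below describe the genes that passed and no more. Each is to be read beside the shares of 6.31% and 7.72% over all tested genes. With the deeper sum of each pair thinned to the shallower total, 205 of 2637 tested genes were higher and 236 lower.

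Genes that make and move GABA were near the floor in excitatory sums in every sample. Gad2, which encodes the GABA-synthesizing enzyme of nerve terminals, had a lowest, median and highest level of 440.4, 739 and 1453 CPM in inhibitory sums and 0 to 5.10 CPM in excitatory sums. Gad1, its partner, had 181, 297 and 391.9 CPM against 0 to 5.52 CPM. Slc32a1, the vesicular GABA transporter, had 190.0, 230.0 and 335 CPM against 0 to 5.02 CPM. No inhibitory value overlapped an excitatory one for these genes. The share of all tested genes without overlap is not given here, and the named genes were picked. Lack of overlap, here and below, therefore only describes the gene named. Of 8 genes in the list of GABA synthesis and transport 4 were tested, and all 4 were higher. The 4 not tested included Abat, which breaks GABA down, at 8.63 to 160.1 CPM in inhibitory sums and 4.07 to 10.7 CPM in excitatory sums.

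**Figure D1:**
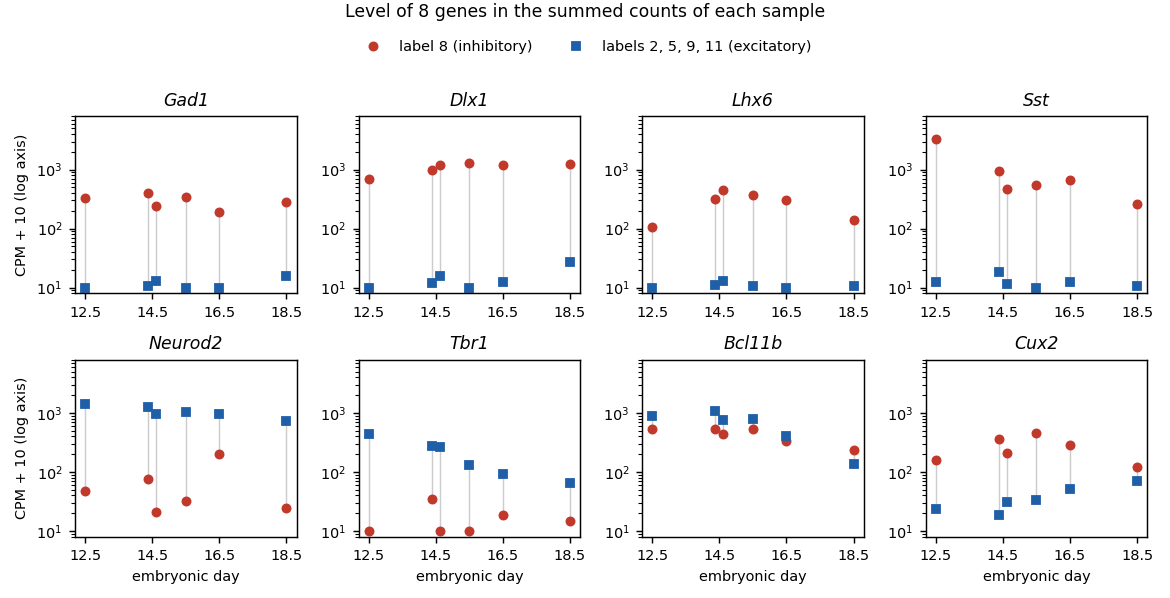
Level of 8 genes in the class sums of each sample, as CPM + 10 on a log axis against embryonic day. Circles are label 8 and squares labels 2, 5, 9 and 11, joined within a sample. Gad1, Dlx1, Lhx6 and Sst are separated in every sample, Neurod2 and Tbr1 the other way round, Cux2 is higher in label 8 in all 6 samples, and Bcl11b overlaps, with label 8 at 226 to 529.5 CPM.

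The DLX genes and their partners had the same pattern, and 8 of the 13 genes listed were tested and all 8 were higher. Dlx1 had a lowest, median and highest level of 690, 1177 and 1301 CPM in inhibitory and 0 to 17.1 CPM in excitatory sums. Dlx2, its neighbour on chromosome 2, had 181, 276 and 390 CPM against 0 to 4.07 CPM, and Dlx5 had 104, 195 and 295.5 CPM against 0 to 2.71 CPM. Dlx6os1 had 518, 594 and 1018 CPM against 0 to 7.53 CPM. Dlx6, which Dlx6os1 overlaps, was counted as a gene of its own but was not tested. It had 11.1, 53.3 and 110 CPM in inhibitory sums against 0 to 3.42 CPM. Because the counted strand was not given in the sources used here, how reads of the overlap were assigned is not known. The zinc finger gene Sp9 had 164, 263 and 378 CPM against 0 to 1.36 CPM. Dlx1 (chr2:71528113-71533981), Dlx2 (chr2:71543408-71546754), Gad1 (chr2:70553072-70602014) and Sp9 (chr2:73271925-73284706) are all on chromosome 2 (GRCm38, GENCODE M21).

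Of 14 genes of MGE-derived interneurons 10 were tested, and all 10 were higher in inhibitory neurons. The list was chosen with earlier results of these data known. Genes near the floor in excitatory sums, such as Lhx6 and Sst, could pass the filter only through the inhibitory side. The shared direction was thus partly set in advance, as it was for the GABA and DLX lists. Lhx6, the LIM homeobox gene that marks MGE interneurons, had a lowest, median and highest level of 98.5, 302 and 434 CPM against 0 to 2.71 CPM in excitatory sums. Maf, a transcription factor gene of the same lineage, had 456, 1069 and 1132 CPM against 0 to 5.52 CPM. Its log2 difference was 8.64 ± 0.25 (SE taken from the test statistic, n = 6 pairs, edgeR adjusted p = 5.8e-18). Sst, the neuropeptide of a large class of MGE interneurons, had 249.8, 604.5 and 3313 CPM against 0 to 8.67 CPM. Nkx2-1 and Lhx8, which mark MGE progenitors and neurons that stay in the ventral forebrain, had 2 and 0 counts in all inhibitory sums together.

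The CGE list had fewer genes above the filter. Of its 13 genes 6 were tested and 5 were higher. Adarb2, expressed in CGE interneurons, had 40.8, 85.0 and 429 CPM in inhibitory sums, with the highest value at E18.5, and 0 to 5.02 CPM in excitatory sums (log2 difference 5.89 ± 0.38; adjusted p = 2e-11). Prox1, a CGE transcription factor gene, was not counted in the inhibitory sum of E14.5 replicate 1 and reached 292 CPM at E18.5, while excitatory sums held 0 to 91.85 CPM. Its difference of 2.504 ± 0.375 passed the test (adjusted p = 2.2e-05) but was 0.69 with label 9 alone as the excitatory side (adjusted p = 0.112). For Nr2f2, a nuclear receptor gene of the CGE, the values were 1.19 ± 0.25 (adjusted p = 0.0015) and 0.50 against label 9 alone (adjusted p = 0.191). The Nr2f2 difference was also not called against label 2 alone (0.71, adjusted p = 0.268) or without the sample as a block (1.15, adjusted p = 0.0551). Vip and Htr3a, genes of CGE subtypes, reached 51.9 and 36.8 CPM in 1 inhibitory sum each and were too low to be tested.

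The inhibitory sum of E12.5 stood apart from the later ones. Meis2, a homeobox gene of the lateral ganglionic eminence (LGE) and striatum that the excitatory class also expresses (317 to 697 CPM), stood at 1453 CPM in it and at 73.5 to 406 CPM in the other inhibitory sums. Isl1, a LIM homeobox gene of striatal projection neurons, stood at 135.5 CPM against 0 to 18.9 CPM. Six3 and Ebf1, transcription factor genes of the same domain, had 123 and 98.5 CPM at E12.5 and no count in any later inhibitory sum. Pbx3 and Zfhx3 had 246 and 135.5 CPM, against at most 51.8 and 16.3 CPM later. The 19 genes of the LGE and striatal list found in the deposited gene list summed to 2512 CPM at E12.5, the highest of the inhibitory sums, whose median was 415 CPM. The genes named above were picked from this list after their values were seen. Only 3 genes of the list were tested over all samples, with Tshz1 higher, Foxp1 lower and Meis2 not called. Drd2 and Adora2a, also in the list, had no count in any inhibitory sum.

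At E12.5 these genes and those of the MGE were mostly detected in different cells. Among the 50 inhibitory cells of E12.5, 16 had a UMI of Isl1, Six3, Ebf1, Pbx3 or Zfhx3, and 23 had a UMI of Lhx6, Maf or Nxph1. A UMI of both sets was found in 1 cell, and 12 cells had neither. Both sets were chosen after the values were seen, and no test was made. In the later samples, the first set was detected in 2 of 89, 2 of 33, 4 of 72, 5 of 46 and 9 of 117 cells. Counts were few: the 11 counts of Isl1 at E12.5 came from 4 cells, 8 of them from 1 cell, and all from 1 of the 2 libraries of that stage. Six3, Ebf1, Pbx3 and Zfhx3 were counted in both libraries, but also with few counts. Ebf1 had 8 counts from 2 cells, 5 of them from 1 cell. Six3 had 10 counts from 6 cells, 5 of them from 1 cell. Pbx3 had 20 counts and Zfhx3 11, each from 8 cells. Without E12.5, the class difference had 448 genes higher and 499 lower.

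**Figure D2:**
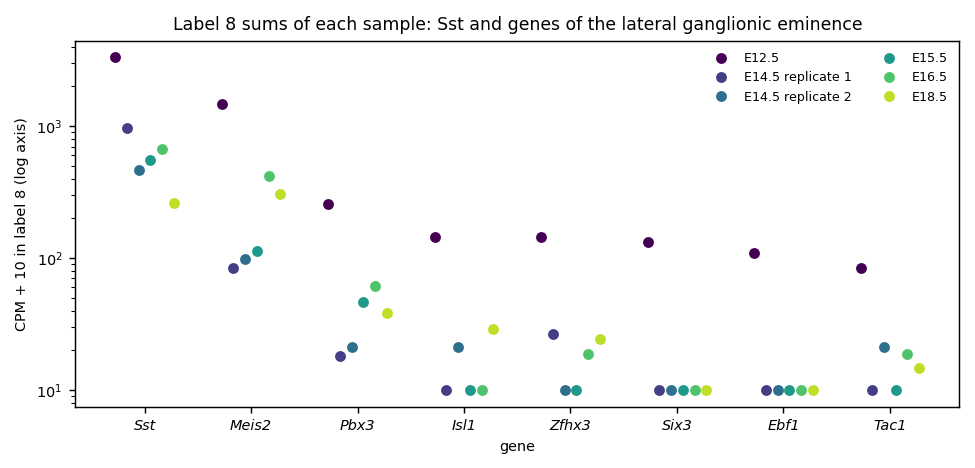
Level of Sst and 7 genes of the lateral ganglionic eminence or striatum in the label 8 sum of each sample, as CPM + 10 on a log axis, 1 point per sample. The E12.5 point is the highest for each of the 8 genes, from 73.9 CPM for Tac1 to 3313 CPM for Sst. The 7 genes were picked from a list of 20 after their values were seen. That Tac1 point rests on 6 counts, 5 of them from 1 cell.

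Transcription factors of cortical excitatory neurons were mostly lower in inhibitory neurons: of 31 genes listed 27 were tested, 22 were lower, 2 were higher and 3 did not pass. Neurod6 had a lowest, median and highest level of 47.1, 68.4 and 229 CPM in inhibitory sums and 1675, 2848 and 3419 CPM in excitatory sums. Neurod2 had 11.1, 29.5 and 190.0 CPM against 721, 990.2 and 1398 CPM. Tbr1, a T-box gene of deep-layer neurons, had 0, 2.36 and 24.5 CPM against 55.2, 190.0 and 426 CPM. Fezf2, the selector gene of subcerebral projection neurons, had 0, 4.32 and 24.5 CPM against 82.3, 426 and 788.5 CPM. None of these 4 genes overlapped between the classes, which describes these picked genes only. Among other genes with the largest differences were Lpl, encoding lipoprotein lipase (log2 difference -6.99 ± 0.50; adjusted p = 9.7e-11), and Sema3c, encoding a secreted semaphorin (-4.57 ± 0.37; adjusted p = 1.2e-09).

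The 2 genes of this list that were higher in inhibitory neurons were Cux1 and Cux2, homeobox genes used as markers of upper-layer excitatory neurons. Cux2 had a lowest, median and highest level of 113, 238 and 441 CPM in inhibitory sums and 8.67, 21.5 and 60.7 CPM in excitatory sums, with no overlap (log2 difference 3.23 ± 0.37; adjusted p = 4.8e-07). Its highest median within an excitatory label was 65.9 CPM, in label 5. Cux1 had 146, 345 and 458 CPM against 31.6, 63.4 and 159 CPM, a difference of 1.90 ± 0.28 (adjusted p = 2.1e-05), which was 0.69 against label 5 alone (adjusted p = 0.0524). At E18.5 the order of Cux1 was turned, with 146 CPM in inhibitory and 159 CPM in excitatory neurons. Sox2, best known from neural progenitors, was also higher in inhibitory neurons, at 334, 414 and 596 CPM against 0.582, 6.49 and 20.4 CPM (log2 difference 5.74 ± 0.32; adjusted p = 8.1e-13). Of the other radial glia genes, 13 of 18 were too low to be tested, and Vim and Ptprz1 were lower. The summed level of the 18 genes was 622 to 1096 CPM in inhibitory, 533 to 945 CPM in excitatory and 8793 to 15680 CPM in the reference group.

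Bcl11b, which encodes the CTIP2 factor of deep-layer and striatal neurons, was expressed by both classes. Its level was 529.5, 514, 423, 522, 328 and 226 CPM in inhibitory sums from E12.5 to E18.5, with E14.5 replicate 1 before replicate 2, and 887, 1065, 756, 793, 398.5 and 125.0 CPM in excitatory sums. Inhibitory neurons were lower up to E16.5 and higher at E18.5. The mean difference of -0.51 ± 0.17 passed narrowly (adjusted p = 0.04), and leaving out any sample but E18.5 ended the call, with adjusted p from 0.0693 to 0.266. Against label 5 alone the difference was 0.53 (adjusted p = 0.0807), and against label 9 alone 0.055 (adjusted p = 0.845).

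Receptors for the signals that guide interneurons were detected on the inhibitory side. Of 18 chemokine, neuregulin and trophic genes 7 were tested and 5 were higher. Erbb4, the neuregulin receptor gene, had a lowest, median and highest level of 320.2, 695 and 868 CPM against 0 to 6.52 CPM (log2 difference 7.63 ± 0.25; adjusted p = 2.6e-17). Ackr3, an atypical receptor of the chemokine CXCL12, had 25.9, 79.8 and 134 CPM against 0 to 13.3 CPM (4.32 ± 0.45; adjusted p = 1.0e-07). Cxcr4, the signalling receptor of the same chemokine, had 9.43 to 125.0 CPM against 0 to 8.14 CPM but was not tested, with 41 and 30 counts in all. Nxph2, encoding a neurexophilin, had 81 counts in inhibitory and none in excitatory sums, at least 288-fold higher by 3 counts over all excitatory sums. Nxph1, its relative, had 268, 334 and 479 CPM against 0 to 5.71 CPM.

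Guidance and adhesion genes were divided, where 6.31% of all tested genes were higher and 7.72% lower. Of 20 semaphorin genes and receptors 12 were tested, 2 were higher and 6 lower in inhibitory neurons; without E14.5 replicate 2, 1 was higher. Sema6a was higher (2.13 ± 0.35; adjusted p = 8.6e-05), at 12.3, 107 and 207 CPM against 17.6, 24.4 and 43.4 CPM. Nrp1, a semaphorin receptor gene, was lower (-2.23 ± 0.30; adjusted p = 4.5e-06), at 12.3, 125 and 199 CPM against 29.7, 514 and 859 CPM, and was 0.46 higher against label 11 alone (adjusted p = 0.274). Of 26 Slit, netrin, ephrin and FLRT genes 18 were tested, 1 was higher and 7 lower, and the 1, Epha5, was not called without E14.5 replicate 1 (0.59, adjusted p = 0.0818) or without E15.5 (0.53, adjusted p = 0.0966), while 2 were higher without E16.5. Ephb1 was lower (-3.06 ± 0.49; adjusted p = 5.0e-05). Of 36 adhesion genes 27 were tested, 5 were higher and 12 lower; without E14.5 replicate 1, 3 were higher. Nrxn3, a presynaptic neurexin gene, had 579, 787 and 1004 CPM in inhibitory and 1.36, 3.57 and 14.5 CPM in excitatory sums (7.07 ± 0.21; adjusted p = 5.8e-18). Cntn2, an axonal adhesion gene, had 7.35, 57.95 and 86.3 CPM against 369, 650.5 and 817 CPM (-3.70 ± 0.21; adjusted p = 1.2e-12).

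Of 28 genes of migration and the cytoskeleton 27 were tested, 4 were higher and 13 lower. Dcx, encoding the microtubule-binding protein doublecortin, was higher in each sample, at 960.5 to 1836 CPM against 652 to 976 CPM (0.64 ± 0.11; adjusted p = 8.5e-05). Tuba1a, the tubulin gene of young neurons, was lower, at 6524 to 7666 CPM against 10190 to 11610 CPM (-0.65 ± 0.07; adjusted p = 4.6e-07). Gap43, a growth cone gene, was lower, at 200.3, 381 and 554 CPM against 1189, 1669 and 1995 CPM (-2.18 ± 0.12; adjusted p = 7.8e-13). Rnd3, which encodes a small GTP-binding protein of migrating neurons, was higher (1.66 ± 0.39, adjusted p = 0.0037). It was not called against label 2 alone (0.74, adjusted p = 0.133) or label 11 alone (0.88, adjusted p = 0.0557). The call also ended with label 0 added to the excitatory side (0.86, adjusted p = 0.142). It ended without the sample as a block (1.33, adjusted p = 0.151) and by DESeq2 (1.56, adjusted p = 0.0839).

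**Figure D3:**
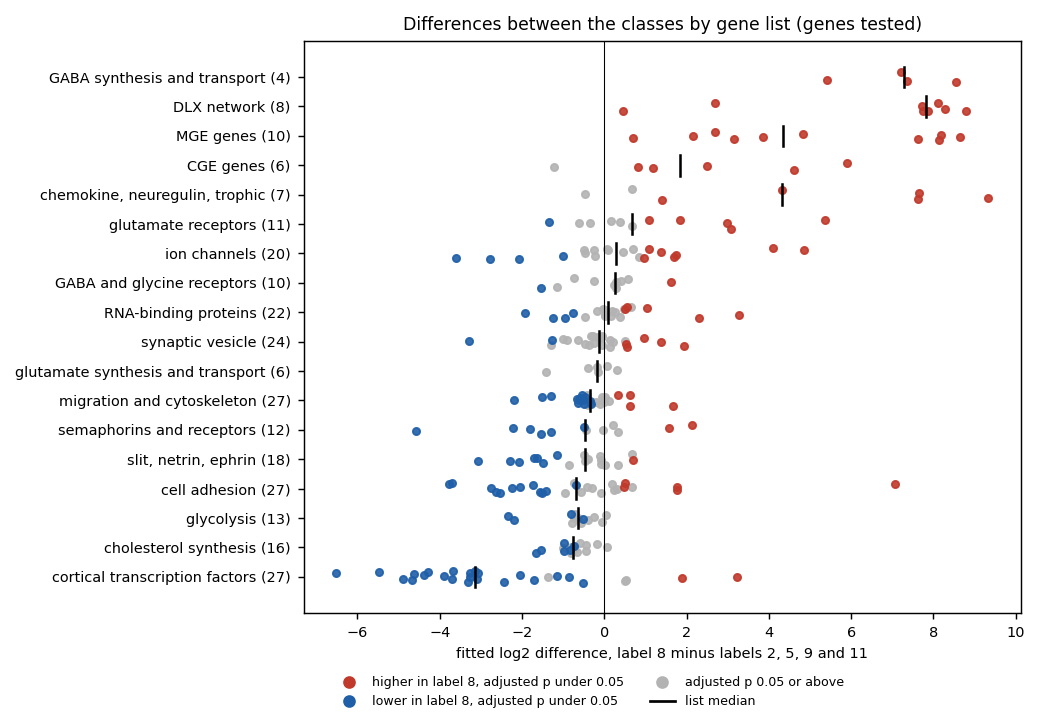
Fitted log2 difference, label 8 minus labels 2, 5, 9 and 11, for the tested genes of 18 lists, 1 point per gene, with the list median as a black bar. The number tested is in parentheses. Every tested gene of the GABA, DLX and MGE lists lies to the right, and 22 of 27 cortical transcription factors are lower. Called genes are all higher in the CGE list and the chemokine, neuregulin and trophic list. They are all lower in the glycolysis and cholesterol lists. No gene of glutamate synthesis and transport is called, and the remaining lists hold called genes of both directions.

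Of 22 glutamate receptor genes 11 were tested, 5 were higher and 1 lower in inhibitory neurons; without E18.5, 2 were lower. Gria1, an AMPA receptor subunit gene, had a lowest, median and highest level of 283, 857.5 and 1224 CPM in inhibitory sums and 62.8, 96.1 and 109 CPM in excitatory sums (2.99 ± 0.15; adjusted p = 1.4e-13). Gria4 had 222, 290.1 and 401 CPM against 14.9, 30.2 and 69.3 CPM (3.07 ± 0.26; adjusted p = 2.9e-09). Gria2, the subunit that makes AMPA receptors impermeable to calcium, was the lower one, at 394, 573 and 786 CPM against 804.5, 1594 and 1801 CPM (-1.34 ± 0.11; adjusted p = 1.1e-09). None of these 3 genes overlapped between the classes, and each kept its direction in all 6 samples. Grik1, a kainate receptor gene, had 29.4, 95 and 121 CPM against 0 to 3.01 CPM (5.36 ± 0.46; adjusted p = 3.3e-09).

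Of 18 GABA and glycine receptor genes 10 were tested, with 1 higher and 1 lower, near the shares over all tested genes (6.31% and 7.72%). Without E15.5, 2 were higher. Gabra3 was higher, at 65.3 to 104 CPM against 17.6 to 39.9 CPM (1.61 ± 0.27; adjusted p = 0.00011), and Gabra2 lower, at 22.1 to 160.1 CPM against 100.5 to 395 CPM (-1.53 ± 0.25; adjusted p = 6.0e-05). Against label 2 alone Gabra2 was not called (-0.92, adjusted p = 0.137). The chloride importer gene Slc12a2 did not pass (-0.26 ± 0.35, adjusted p = 0.719). The chloride exporter gene Slc12a5 had 5 counts in all inhibitory and 17 in all excitatory sums, which held 757500 and 8080317 UMIs. Its median was 7.92 CPM in label 8 and 0 CPM in each excitatory label, too low to be tested.

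Of 34 ion channel genes and auxiliary subunits 20 were tested, 7 were higher and 4 lower, the latter 2 without E15.5 or without E18.5. Cacna2d2 and Cacna2d1, auxiliary subunits of calcium channels, went opposite ways. Cacna2d2 had 29.4, 36.1 and 86.2 CPM against 0 to 2.71 CPM (4.85 ± 0.56; adjusted p = 6.3e-07). Cacna2d1 had 0, 15.1 and 25.9 CPM against 152.5, 168 and 254.5 CPM (-3.59 ± 0.32; adjusted p = 6.3e-09). Of 30 presynaptic genes 24 were tested, 5 were higher and 2 lower, with 3 higher without either E14.5 sample or without E16.5. Syt1, the calcium sensor of fast release, was higher, at 384, 580 and 820 CPM against 155, 205.5 and 334 CPM (1.39 ± 0.12; adjusted p = 5.4e-09). Syt4, another synaptotagmin gene, was lower, at 22.3, 42.5 and 94.3 CPM against 248, 433 and 768 CPM (-3.28 ± 0.20; adjusted p = 4.2e-12). Both synaptotagmin genes were separated between the classes in all samples.

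Of 24 RNA-binding protein genes 22 were tested, 5 were higher and 4 lower. Qk, a splicing regulator gene known from glia and progenitors, had 189, 248 and 259 CPM against 31.95, 47.2 and 61.7 CPM (2.31 ± 0.19; adjusted p = 1.2e-09). Rbfox1, a neuronal splicing factor gene, was lower, at 32.7, 79.9 and 134 CPM against 183, 271 and 413 CPM (-1.92 ± 0.22; adjusted p = 4.4e-07).

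Metabolic genes that passed were lower in inhibitory neurons. In glycolysis 13 of 17 genes were tested, 0 were higher and 4 lower, 2 of them without E14.5 replicate 1. Ldha, lactate dehydrogenase, had 7.35, 42.7 and 66.0 CPM against 131, 187 and 247 CPM (-2.20 ± 0.28; adjusted p = 2.4e-06). Gpi1 had 7.35 to 14.1 CPM against 46.2 to 69.2 CPM (-2.33 ± 0.39; adjusted p = 9.9e-05), at most 3 counts in each inhibitory sum. In cholesterol synthesis 16 of 20 were tested, 0 were higher and 6 lower. Fdft1, which encodes squalene synthase, had 24.5, 47.3 and 66.8 CPM against 129, 154 and 159.8 CPM (-1.67 ± 0.23; adjusted p = 8.8e-06). Hmgcs1 was lower (-0.98 ± 0.19; adjusted p = 0.00063) but not against label 2 alone (-0.40, adjusted p = 0.315) or label 11 alone (-0.36, adjusted p = 0.251). Inhibitory cells also held fewer UMIs, given next, and its part in these differences was not tested.

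Inhibitory cells yielded fewer molecules than excitatory cells of the same sample in all 6 samples. The median UMIs per cell were 1264 to 2417 in inhibitory and 1980 to 4261 in excitatory cells, a mean log2 difference of -0.80 ± 0.26 (SD, n = 6; exact sign-flip permutation test, two-sided, p = 0.03125, adjusted over 4 measures 0.0625). That p is the smallest 6 pairs can give. Thinned to 1000 UMIs, inhibitory cells had slightly fewer genes, 687 to 766 against 703 to 768, in 6 of 6 samples (log2 -0.018 ± 0.012; exact p = 0.03125, adjusted 0.0625). Without thinning the medians were 872 to 1534 and 1227 to 2282.5 genes. The mitochondrial share was higher by 0.469 ± 0.478 percentage points in 5 of 6 samples (exact p = 0.09375, adjusted 0.09375), and the ribosomal protein share lower by a difference of -0.642 ± 0.514 points in 5 of 6 (exact p = 0.0625, adjusted 0.0833). None of the 4 measures passed after adjustment. Paired over the 10 libraries instead, the differences were -0.746, -0.0173, 0.462 and -0.532, and all 4 passed, but libraries of 1 sample are not labelled as separate samples.

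**Figure D4:**
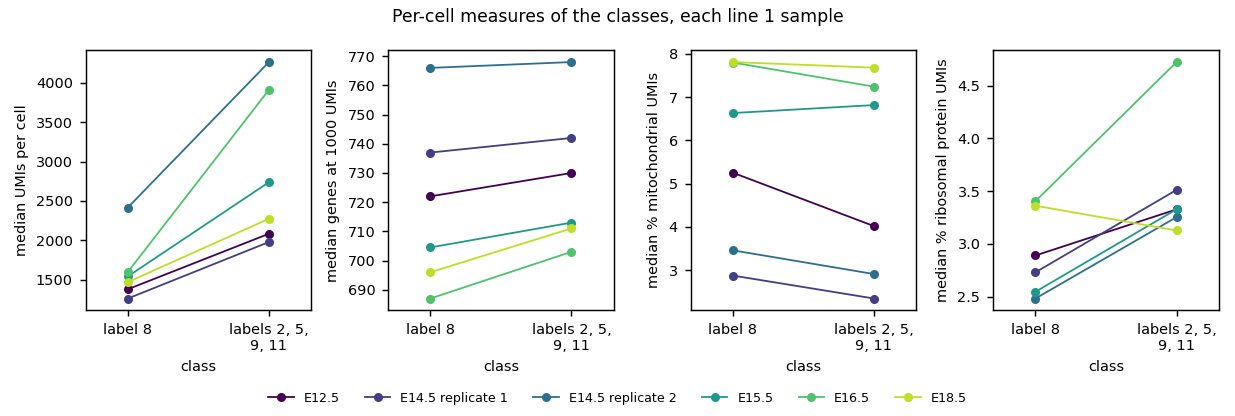
Median per cell of UMIs, of genes at 1000 UMIs, of the mitochondrial share and of the ribosomal protein share in the 2 classes, each line 1 sample. UMIs per cell are lower in label 8 in all 6 samples, with the widest gap at E16.5 (1600 against 3909), and the ribosomal protein share is higher in label 8 at E18.5 only.

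The class difference itself changed with stage for few genes. A slope of the log2 difference per day was fitted as the interaction of class and day. Of 6772 genes 30 (0.443%) had a rising and 31 (0.458%) a falling difference at an adjusted p under 0.05, 0.901% in either direction. The make-up of the excitatory class by label moved with the same days, and its part was not tested in the fit. With only 1 label as the excitatory side, 4 to 18 genes rose and 2 to 17 fell. Without the sample as a block 4 rose and 0 fell, and DESeq2 called 9 and 8.

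Several of the rising differences were of genes that went down in excitatory sums. Sox5, a deep-layer transcription factor gene, had 729, 1096, 915, 532, 221 and 43.2 CPM in excitatory sums from E12.5 to E18.5, with E14.5 replicate 1 before replicate 2, and 0, 122.5, 33.4, 22.1, 34.5 and 61.3 CPM in inhibitory sums. The difference rose by 1.11 ± 0.17 per day (adjusted p = 0.00028), but without E18.5 by 0.64 (adjusted p = 0.684). It was not called against label 2 alone (0.49, adjusted p = 0.844), label 9 alone (0.64, adjusted p = 0.239) or label 11 alone (0.25, adjusted p = 0.877). Cdh13, a cadherin gene, had 253, 308, 219.9, 175, 86.75 and 33.1 CPM in excitatory sums and 0, 8.16, 55.65, 29.4, 25.9 and 66.0 CPM in inhibitory sums. Its slope was 1.13 (adjusted p = 0.00031), and without E18.5 it was 0.97 (adjusted p = 0.575). Against label 2 alone (1.06, adjusted p = 0.706) or label 11 alone (0.77, adjusted p = 0.569) the Cdh13 slope was not called. Gria3, an AMPA receptor subunit gene, had 12.3, 8.16, 11.1, 22.1, 104 and 137 CPM in inhibitory sums and 121, 139, 104.5, 73.3, 54.1 and 52.7 CPM in excitatory sums. Its slope was 1.007 ± 0.164 (adjusted p = 0.00031), so the classes crossed between E15.5 and E16.5. St18, a zinc finger gene, also crossed, with 36.9 against 152 CPM at E12.5 and 123 against 7.03 CPM at E18.5 (slope 1.18 ± 0.17, adjusted p = 0.00017; without E18.5 0.88, adjusted p = 0.32).

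Several of the falling differences were of genes that went up in excitatory sums. Npy, a neuropeptide gene of MGE interneurons, had 443, 751, 267, 235, 466.3 and 127 CPM in inhibitory sums and 0, 12.7, 9.502, 61.1, 96.8 and 87.3 CPM in excitatory sums. Its slope was -1.23 ± 0.15 (adjusted p = 2.9e-06), and 0.32 with label 9 alone as the excitatory side (adjusted p = 0.882). Nrp1 rose in excitatory sums from 29.7 CPM at E12.5 to 859 CPM at E18.5 and stood at 12.3, 188, 89.0, 162, 199 and 23.6 CPM in inhibitory sums, a slope of -0.75 ± 0.14 (adjusted p = 0.0016). Without E18.5 the slope was -0.34 (adjusted p = 0.843), and without E14.5 replicate 1 it was -0.65 (adjusted p = 0.055). The Nrp1 slope was also not called against label 2 alone (-0.37, adjusted p = 0.864), label 5 alone (-0.47, adjusted p = 0.453) or label 11 alone (-0.26, adjusted p = 0.877). With label 0 added to the excitatory side it was -0.40 (adjusted p = 0.204). Cck, a neuropeptide gene, had 12.3 to 89.8 CPM in inhibitory and 12.55 to 69.2 CPM in excitatory sums up to E16.5. At E18.5 it stood at 14.1 against 286 CPM (slope -0.89 ± 0.18, adjusted p = 0.0049; without E18.5 -0.41, adjusted p = 0.896). Dlx1 gave a falling slope of -0.79 (adjusted p = 0.0052), with 17.1 CPM in the excitatory sum of E18.5 and at most 5.43 CPM in the others. Without E18.5 the slope was 0.05 (adjusted p = 0.998). It was also not called against label 2 alone (-0.46, adjusted p = 0.914), label 5 alone (-0.90, adjusted p = 0.183) or label 11 alone (0.89, adjusted p = 0.82). Sept6, encoding a septin, fell by 0.91 per day (adjusted p = 0.00031), from 135.5 against 7.99 CPM at E12.5 to 75.4 against 121 CPM at E18.5. Its slope was not called with label 5 alone (-0.66, adjusted p = 0.106) or label 2 alone (-0.92, adjusted p = 0.354). Nor was it called without the sample as a block (-0.84, adjusted p = 0.0972).

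**Figure D5:**
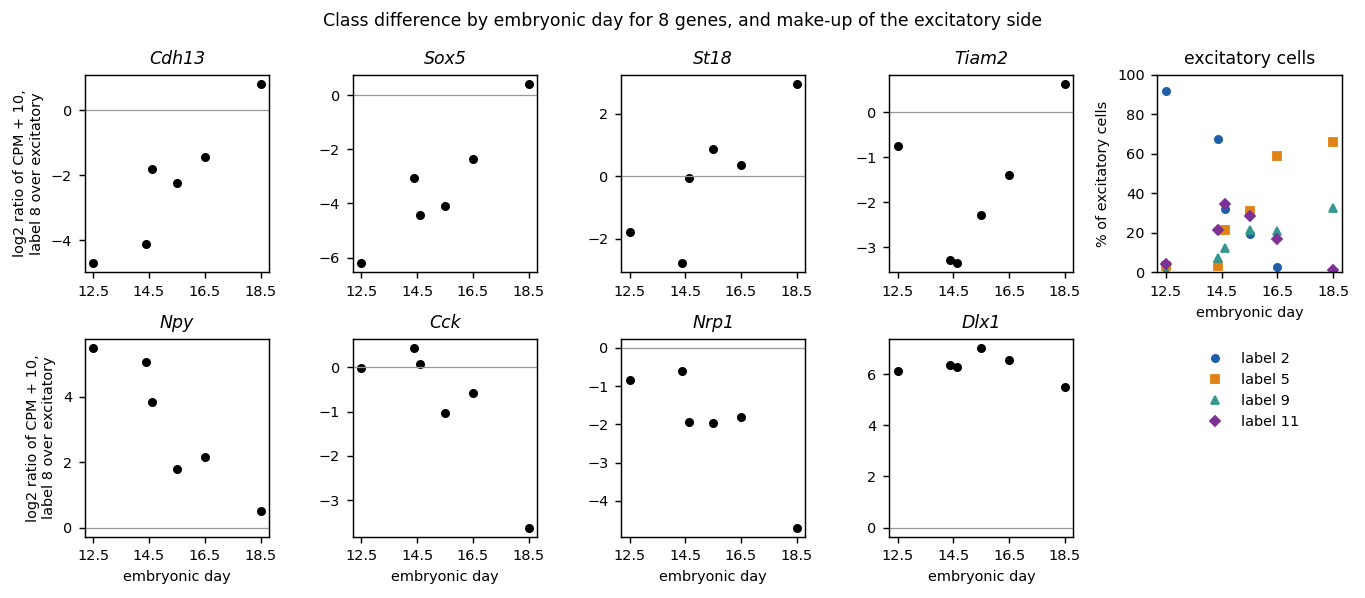
Log2 ratio of CPM + 10, label 8 over labels 2, 5, 9 and 11, against embryonic day for 8 genes with called slopes, 1 point per sample, and the percent of excitatory cells in each label. Cdh13, Sox5, St18 and Tiam2 are highest at E18.5, Cck and Nrp1 lie far below their other samples at E18.5 (-3.62 and -4.69), and label 2 gives way to label 5 over the same days.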

How the data were processed

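Drop-seq (protocol 3.1, per the labels' protocols) was used to measure mRNA in single cells. The submitters' processing notes name genome build mm10 and Seurat 3.1.5. The authors deposited counts, which are whole UMIs for 21862 genes in 10261 cells, and a cluster number for each cell. Aligner and strand setting: not given in the sources used here. The shallowest cell had 580 UMIs. Libraries were matched to samples by prefix, 1 of them by inference. That library, E14_2.1, was placed in E14.5 replicate 1, and E14_2.2, with the same stem, is E14.5 replicate 2. Whether they share a preparation is not given in the sources used here.

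For each sample, counts were summed per class. The sums were fitted with the quasi-likelihood test of edgeR 4.0.16 under R 4.3.3, two-sided, after filterByExpr and TMM scaling, with the sample as a block, since both sums of a pair come from the same sample. Benjamini-Hochberg adjustment covered all tested genes. The SE of a log2 difference or slope was its absolute value divided by the square root of the F statistic. That statistic uses variation moderated over genes, so the SE is not a spread over the pairs. Per-cell medians were compared by exact sign-flip tests. The fits were tested on simulated data. Alternatives included DESeq2 1.42.0, Scrublet doublets (scanpy 1.11.5) left out, 1 excitatory label at a time and each sample left out. The members and the 27 gene lists were chosen with earlier results of these data known. Named genes were the 12 largest differences with the same sign in every sample and the 8 steepest slopes per direction, at a mean of at least 50 CPM, up to 4 called members per direction of each list, and a set of fixed genes. The largest and steepest excluded unnamed models, sex-linked genes, and mitochondrial, haemoglobin and ribosomal protein genes. Abat, Nkx2-1, Lhx8, Vip, Htr3a, Lhx1, Trp73 and the LGE and striatal genes named at E12.5 fall outside this rule and were chosen after their values were seen. Results for some genes are not reported here.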

Additional observations from a re-analysis of the deposited data

Results flagged for a closer look

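Within a class of 6 samples, 1 sample can lie far from the rest by Dixon's criterion. Of 49 values looked at, 6 did so. For values not chosen by their size, chance gives about 1 in 20, but the genes were chosen for their differences or slopes, so that rate does not apply to them. The log2 ratio of inhibitory over excitatory CPM (with 10 added to each) is meant unless stated.

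The ratio of Sst was 8.08 at E12.5 and 4.63 to 5.79 in the other samples. In the inhibitory sum of E12.5, 27 of 50 cells had a UMI of Sst and the highest cell held 15.2% of its 269 counts. The ratio of Npas3 was 0.709 at E12.5 and 3.48 to 4.08 elsewhere. Hspa12a stood at -0.237 at E12.5 and -4.73 to -3.66 elsewhere, with 24.6 CPM in the inhibitory sum of E12.5, under 3 counts. Nrp1 stood at -4.69 at E18.5 and -1.96 to -0.604 elsewhere. Cck stood at -3.62 at E18.5 and -1.02 to 0.446 elsewhere. The log2 difference in median UMIs per cell was -1.29 at E16.5, where the other 5 samples lay between -0.826 and -0.594. The cells of E16.5 came from 1 library. By library, those of E15.5 stood at -0.562 and -1.19, so the E16.5 library did not stand apart as the sample did.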

How the results depend on the processing

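The calls rest on 6 pairs, and depth limits genes under about 3 counts a sum. The counts of genes higher and lower, 427 and 523, became 205 and 236 with the deeper sum thinned, 254 and 254 with label 2 alone as the excitatory side, 187 and 210 with label 5 alone, and 246 and 281 with label 11 alone; fewer genes were tested in each. With no low count filter, 446 were higher and 1004 lower, and the median of all tested genes was -0.338. Leaving out each sample in turn gave 323 to 448 higher and 393 to 499 lower.

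The slopes moved more. Against 30 rising and 31 falling, no replicate block gave 4 and 0 (372 at an unadjusted p under 0.05 in either direction, against 469), DESeq2 9 and 8, label 2 alone 5 and 5, label 5 alone 4 and 2, label 9 alone 18 and 17, and label 11 alone 15 and 9. Thinning gave 15 rising. Leaving out each sample in turn gave 13 to 32 rising and 17 to 30 falling, with 19 and 18 without E14.5 replicate 1 and 13 and 17 without E18.5. Without the replicate block, 652 genes were called for the class difference, 643 of them shared with the 950 called in the paired fit. The cause of these changes was not tested.

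Called values that turned were Bcl11b against label 5 (0.5302) and label 9 (0.05513), Nrp1 (0.4598) and Sv2a (-0.02618) against label 11, and the slopes of Dlx1 against label 11 (0.8932) and without E18.5 (0.05443; -1.003 to 0.05443 over the samples left out), Gucy1a3 against label 2 (0.3295), Npy against label 9 (0.3225), and Tiam2 against label 2 (-1.041) and without E18.5 (-0.2016; -0.2016 to 1.239). Differences that were not called also turned: Gucy1a3 (0.6043) was -0.7828 against label 5, and St18 (0.4079) was -0.01372 with no replicate block, -0.03004 by DESeq2, -0.01917 against label 9 and -0.6167 without E18.5. Paired per library, the per-cell differences were -0.7461, -0.01729, 0.4618 and -0.5317, with adjusted p of 0.00781, 0.0117, 0.0273 and 0.0234 by exact sign flips over 10 libraries. Leaving out cells with over 2% haemoglobin UMIs, an alternative chosen after seeing the data like the next 2, gave 429 higher and 520 lower. Leaving out the library assigned by inference or barcodes found in more than 1 library kept all 4 counts within 1.5 times.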

Other observations

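Some interneuron genes varied between samples within the inhibitory class. Calb1, a calcium-binding protein gene, had 271, 73.5, 22.3, 51.5, 242 and 179 CPM in inhibitory sums from E12.5 to E18.5, with E14.5 replicate 1 before replicate 2, and at most 6.29 CPM in excitatory sums. Adarb2 stood at 40.8 to 155 CPM up to E16.5 and at 429 CPM at E18.5, where 39 of its 91 counts came from 1 of 117 cells. Prox1 had 62 counts in 24 cells at E18.5. Vip was counted at E18.5 only, at 51.9 CPM.

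Cell cycle genes were low in both classes, at 191 to 599 CPM for 20 genes summed in inhibitory and 147 to 268 CPM in excitatory sums, against 8281 to 11680 CPM in cells of labels 1, 3, 6, 10 and 12. Of these genes, Hmgb2 was higher in inhibitory neurons (log2 difference 1.49 ± 0.41; edgeR adjusted p = 0.0136), but not without E15.5 (1.39, adjusted p = 0.0533) or E18.5 (0.9971, adjusted p = 0.189), where 13 of its 29 counts came from 1 cell. The 10 Cajal-Retzius genes summed to 51.5 to 212 CPM in inhibitory and 44.8 to 144 CPM in excitatory sums. Of the inhibitory sums, Cacna2d2 held 29.4 to 86.2 CPM, and the defining markers Trp73 and Lhx1 had no count.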
